A study of Mus musculus with 8 samples.

Results

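The 35 genes described here belong to the ATF4 and unfolded-protein stress responses. They were chosen by gene name from the 35896 rows of the count table: 26 amino acid response genes (5 transcription factors, 6 feedback and signalling genes, 9 enzymes and 6 transporters) and 9 genes of the endoplasmic reticulum. The choice was made with earlier results of these data known. Counts and medians of these genes set beside those of all genes are therefore descriptions, and no test was made over the list. All 35 had a counted row and passed the filter on low counts that left 19022 genes for testing. Ddit3 has 2 rows in the table, one of which is at 0 throughout, so the other row was used.

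The samples were molar tooth germs, embryonic tooth rudiments of BRE-GFP mice, which carry a fluorescent reporter of BMP signalling through Smad proteins. Every germ was cultured in serum-containing medium and treated for 1 day, so the control groups share the culture and the reporter. The groups were E12.5 germs with SIS3, an inhibitor of Smad3; E12.5 germs with SB431542, which blocks type I receptors for TGF-beta and activin; E13.5 germs with DMSO, the solvent; and E12.5 germs with DMSO. Neither doses nor embryo numbers nor any pooling are stated in the sources used here.

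The count table holds 2 columns for each of the 4 groups. In the SB431542, E13.5 DMSO and E12.5 DMSO groups the totals of the 2 columns differed by 0.00212%, 0.00749% and 0.00168%, and for genes with 1 transcript the squared difference between paired columns, over that of dividing 1 set of reads at random, was 1.21, 1.19 and 1.26 by the median gene, against 11.1 for SIS3. By the mean over genes, which a few genes can set, it was 3.03, 1.56 and 2.27, against 30.9 for SIS3. Each of these pairs was therefore summed and counted as 1 sample, which left 5 libraries with 5995709 and 9427262 counts (SIS3), 28161788 (SB431542), 17519118 (E13.5 DMSO) and 30975010 (E12.5 DMSO). The labels give the TruSeq RNA kit v2 for both SIS3 libraries and the SMARTer Universal Low Input kit for every other library, so the effects of SIS3 and of the kit cannot be told apart, and every SIS3 value below holds both. Markers of dental mesenchyme were present in every library, with a summed level of 3090 and 2630 normalised CPM in SIS3 libraries, 3600 in SB431542, 2670 in E13.5 DMSO and 3680 in E12.5 DMSO. Normalised CPM are CPM computed on the TMM-scaled library size. Nothing in the labels says that the 2 SIS3 libraries came from separate cultures, so p-values measure only the spread between these samples, which may be technical.

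ATF4 is the transcription factor of the integrated stress response. Kinases that sense amino acid shortage, unfolded proteins, viral RNA or lack of haem phosphorylate the initiation factor eIF2, which lowers protein synthesis in general and raises translation of the Atf4 mRNA. ATF4 then induces genes for amino acid synthesis and uptake and genes that feed back on the response. Unfolded protein in the endoplasmic reticulum also activates IRE1, which splices the Xbp1 mRNA, and ATF6, and these branches induce chaperones such as BiP (Hspa5) and degradation factors. The amino acid genes and the chaperones therefore report partly separate branches, and the counts used here do not measure translation or splicing.

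In SIS3 libraries against E12.5 DMSO, 14 of the 26 amino acid response genes were called higher and 0 lower, while 0 of the 9 endoplasmic reticulum genes were called in either direction. A call is an adjusted p under 0.05 by the quasi-likelihood test of edgeR, adjusted by Benjamini and Hochberg's method over the 19022 genes; of these, 0.794% were called higher and 3.03% lower. The median log2 fold change was 1.57 over the amino acid response genes, with 25 of 26 above 0, and -0.07 over the endoplasmic reticulum genes, with 3 of 9 above 0; over all genes tested it was 0. DESeq2 called 16 amino acid response genes higher and 1 endoplasmic reticulum gene (Herpud1) higher, against 230 higher and 448 lower among all genes. At an unadjusted p under 0.05, 21 amino acid response genes and 1 endoplasmic reticulum gene were higher and none was lower, against 5.82% of all genes higher and 2085 of 19022 genes lower. The count of 14 fell to 8 when trends with GC content and gene length were removed, and to 4 when genes averaging under 5 CPM were left out. The folds did not shrink with the calls: the median log2 fold change of these 14 genes was 2.10, 2.32 with the trends removed and 2.10 with the filter. All 14 genes passed that filter, which hardly alters the fold of a gene that passes, so the last value is no check of the folds. A change in the share of a cell population and a change in RNA per cell cannot be told apart in these bulk samples.

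**Figure D1:**
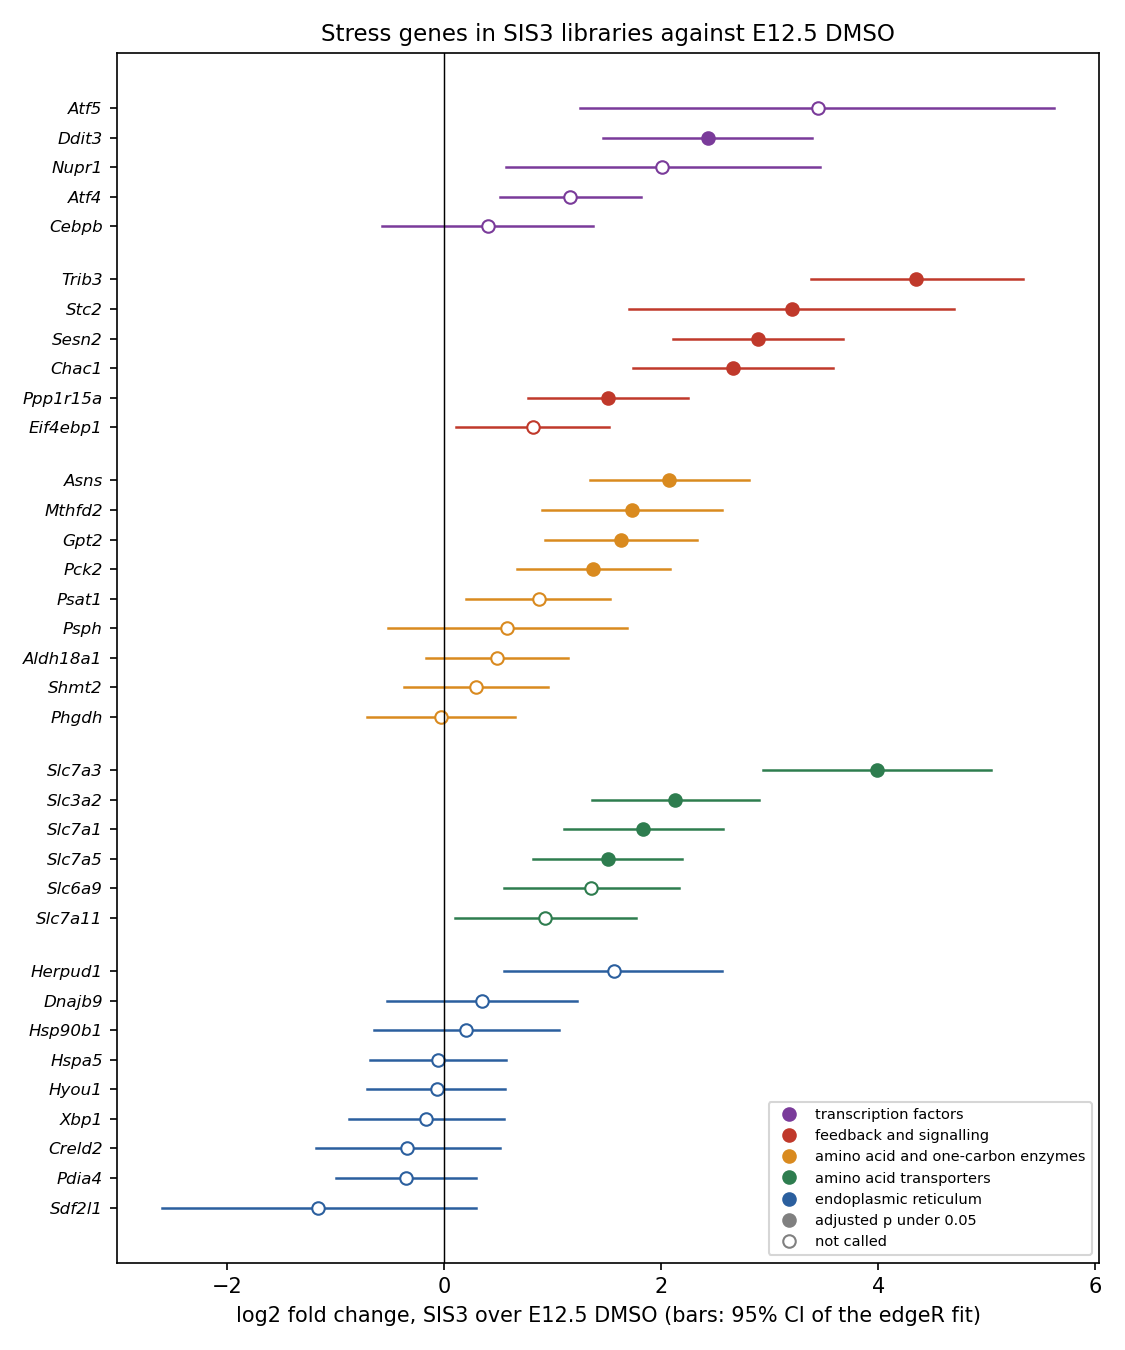
Log2 fold change of each of the 35 genes in SIS3 libraries over E12.5 DMSO, grouped by role, with the 95% confidence interval of the edgeR fit; filled points passed the test and open points did not. The 14 filled points lie among the amino acid response genes, and the 9 endoplasmic reticulum genes run from -1.16 to 1.56.

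The feedback and signalling group had 5 of 6 genes called higher, with a median log2 fold change of 2.77. Trib3 (ENSMUSG00000032715; GRCm38 chromosome 2, 152337422 to 152344032, minus strand) encodes a pseudokinase that binds ATF4 and restrains it. It had 80.5 and 83.0 normalised CPM in SIS3 libraries, 6.94 and 8.62 in SB431542 columns, 2.98 and 2.51 in E13.5 DMSO columns and 5.09 and 2.91 in E12.5 DMSO columns. Both SIS3 values lay above every other column, and the log2 fold change over E12.5 DMSO was 4.35 (SE 0.45, adjusted p = 0.000118), the highest of the 35 genes.

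Chac1 (ENSMUSG00000027313; chromosome 2, 119351229 to 119354381, plus strand) encodes an enzyme that degrades glutathione. Its levels were 61.7 and 59.1 normalised CPM in SIS3 libraries, 17.0 and 16.9 in SB431542 columns, 1.31 and 2.39 in E13.5 DMSO columns and 8.66 and 10.4 in E12.5 DMSO columns. The groups did not overlap, and Chac1 rose by 2.66 on the log2 scale in SIS3 libraries (SE 0.43, adjusted p = 0.00375).

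Sesn2 (ENSMUSG00000028893; chromosome 4, 132492032 to 132510501, minus strand) encodes a leucine-binding protein that restrains mTORC1. Its counts gave 129 and 121 normalised CPM in SIS3 libraries, 29.7 and 31.1 in SB431542 columns, 23.5 and 25.4 in E13.5 DMSO columns and 16.1 and 17.8 in E12.5 DMSO columns. SIS3 libraries were the highest and E12.5 DMSO columns the lowest, at a log2 fold change of 2.89 in SIS3 libraries (SE 0.36, adjusted p = 0.000622).

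Stc2 encodes a secreted glycoprotein hormone and was a rare transcript outside the SIS3 group. It gave 15.0 and 22.1 normalised CPM in SIS3 libraries, 1.47 and 2.52 in SB431542 columns, 0 in both E13.5 DMSO columns and 1.32 and 2.71 in E12.5 DMSO columns, and rose by 3.20 (SE 0.70, adjusted p = 0.0217) in SIS3 libraries. Ppp1r15a encodes GADD34, the phosphatase subunit that removes the phosphate from eIF2. It was measured at 108 and 143 normalised CPM in SIS3 libraries, 49.1 and 64.7 in SB431542 columns, 32.8 and 32.6 in E13.5 DMSO columns and 44.8 and 43.5 in E12.5 DMSO columns. Ppp1r15a rose by 1.51 (SE 0.34, adjusted p = 0.0267) with no overlap between the SIS3 and the other columns. Eif4ebp1, which encodes a repressor of cap-dependent translation, was not called (log2 fold change 0.82, adjusted p = 0.216).

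Among the 5 transcription factors 1 was called. Ddit3 (ENSMUSG00000025408; chromosome 10, 127290774 to 127296288, plus strand) encodes CHOP, which acts downstream of ATF4. Ddit3 had 72.9 and 47.1 normalised CPM in SIS3 libraries, 13.6 and 16.8 in SB431542 columns, 10.98 and 12.54 in E13.5 DMSO columns and 11.3 and 10.97 in E12.5 DMSO columns. The SIS3 libraries stood above the rest, by 2.43 on the log2 scale over E12.5 DMSO (SE 0.45, adjusted p = 0.00809).

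Atf4 itself (ENSMUSG00000042406; chromosome 15, 80255184 to 80257541, plus strand) was not called at the threshold. Its levels were 315 and 330 normalised CPM in SIS3 libraries, 153 and 142 in SB431542 columns, 109 and 115 in E13.5 DMSO columns and 143 and 147 in E12.5 DMSO columns. Both SIS3 libraries lay above every other column, by 1.16 on the log2 scale over E12.5 DMSO (SE 0.30, 95% confidence interval 0.51 to 1.81, adjusted p = 0.051). Atf5, which encodes a related factor, differed most between the SIS3 libraries, with 89.2 and 238 normalised CPM in them against 14.68 and 15.53 in E12.5 DMSO columns. Its log2 fold change of 3.44 (SE 0.79, adjusted p = 0.142) did not pass the test. Nupr1, a small stress-induced chromatin protein gene, and Cebpb, a leucine zipper factor gene, had log2 fold changes of 2.01 (adjusted p = 0.127) and 0.40 (adjusted p = 0.727).

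**Figure D2:**
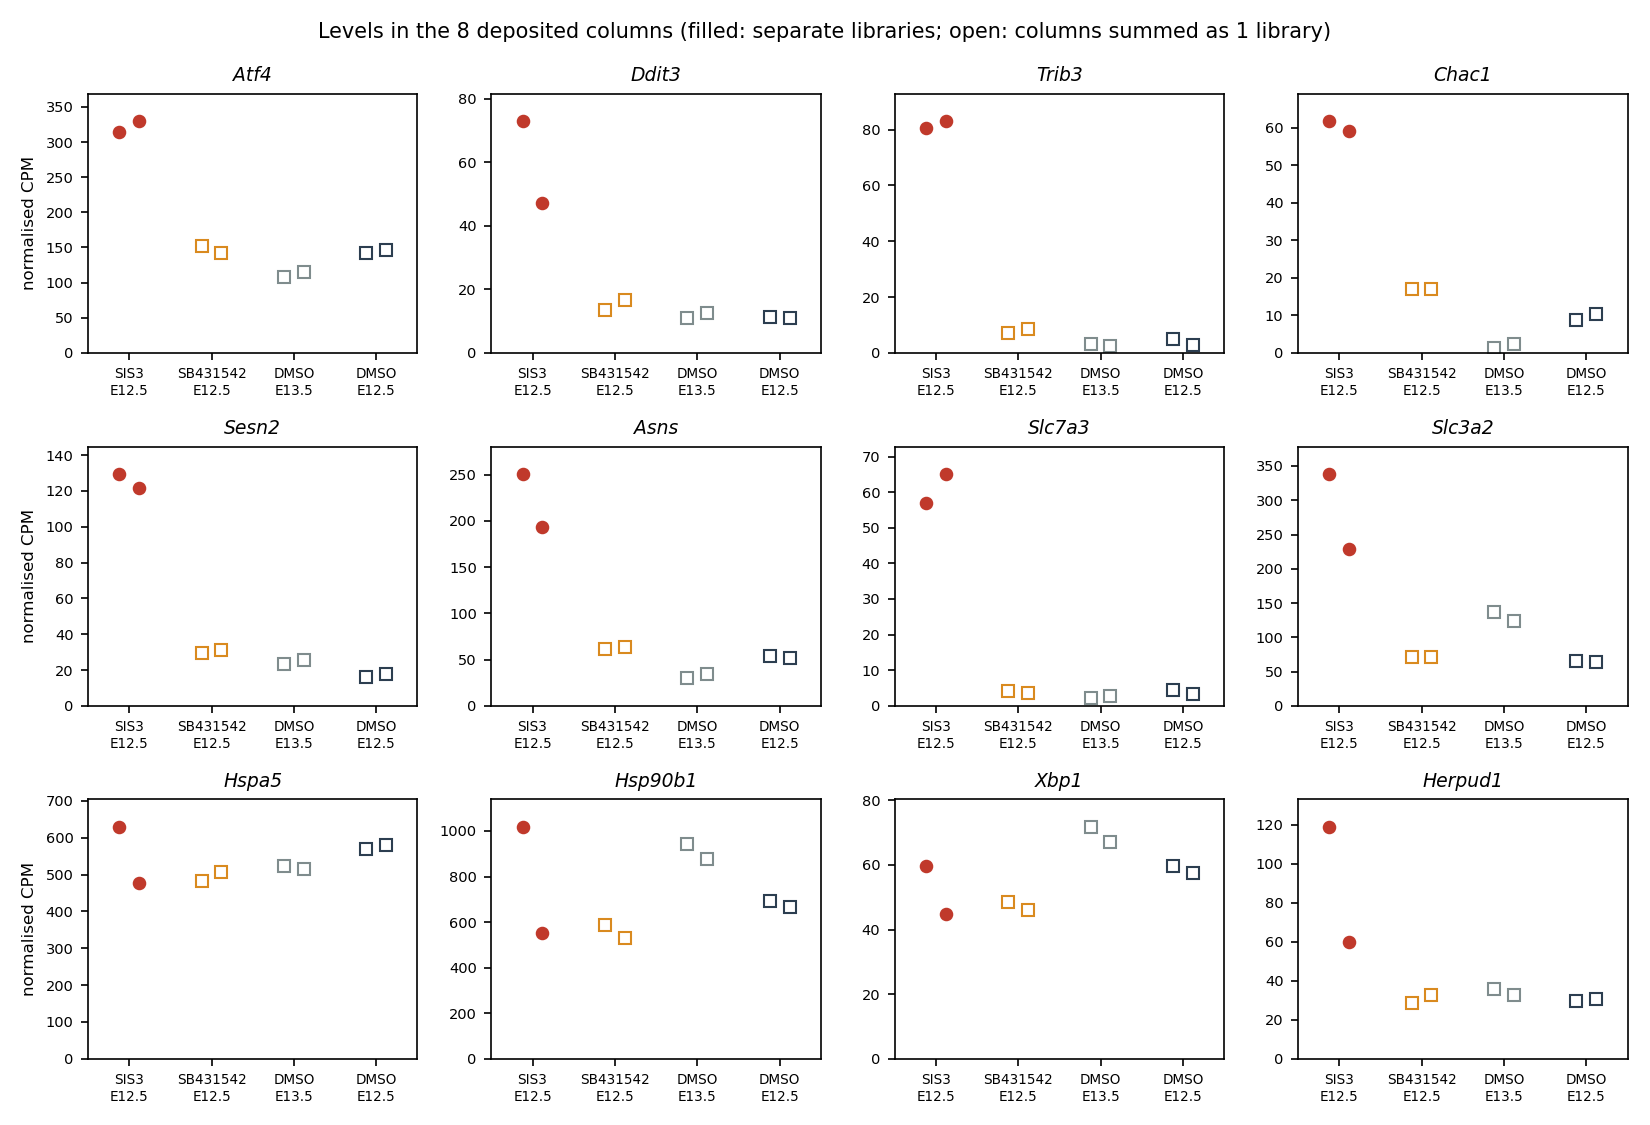
Level of 12 genes (normalised CPM, linear axis from 0) in the 8 deposited columns, with SIS3 at the left and E12.5 DMSO at the right; filled circles are separate libraries and open squares are the paired columns counted as 1 library. For Trib3 the SIS3 libraries had 80.5 and 83.0 normalised CPM while no other column exceeded 8.62, whereas for Hspa5 the SIS3 libraries (629 and 477) span the E12.5 DMSO columns (569 and 580).

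Amino acid transporters had 4 of 6 genes called higher, with a median log2 fold change of 1.67. Slc7a3 (ENSMUSG00000031297; chromosome X, 101079210 to 101086020, minus strand), a transporter of cationic amino acids, had 57.1 and 65.0 normalised CPM in SIS3 libraries, 4.14 and 3.72 in SB431542 columns, 2.27 and 2.75 in E13.5 DMSO columns and 4.36 and 3.31 in E12.5 DMSO columns. Its log2 fold change over E12.5 DMSO was 3.99 (SE 0.49, adjusted p = 0.00048). The related transporter Slc7a1 had 269 and 195 normalised CPM in SIS3 libraries, 69.3 and 73.3 in SB431542 columns, 50.3 and 50.4 in E13.5 DMSO columns and 65.8 and 64.3 in E12.5 DMSO columns. Slc7a1 rose by 1.83 (SE 0.34, adjusted p = 0.00854), and for both genes the SIS3 libraries were the highest.

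Slc3a2 and Slc7a5 encode the heavy and the light chain of the transporter for large neutral amino acids, LAT1. Slc3a2 was at 338 and 228 normalised CPM in SIS3 libraries, 70.8 and 71.6 in SB431542 columns, 137 and 124 in E13.5 DMSO columns and 65.0 and 64.3 in E12.5 DMSO columns. Slc7a5 was at 248 and 216 normalised CPM in SIS3 libraries, 91.3 and 82.4 in SB431542 columns, 61.1 and 64.9 in E13.5 DMSO columns and 81.0 and 82.2 in E12.5 DMSO columns. Both chains were highest in the SIS3 libraries, and they rose by 2.13 (Slc3a2, SE 0.36, adjusted p = 0.00477) and 1.51 (Slc7a5, SE 0.32, adjusted p = 0.018). Slc7a11, the cystine-glutamate exchanger gene, and Slc6a9, a glycine transporter gene, were not called, with log2 fold changes of 0.93 (adjusted p = 0.235) and 1.35 (adjusted p = 0.0652).

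Of the 9 enzyme genes 4 were called higher, and the median log2 fold change was 0.87. Asns (ENSMUSG00000029752; chromosome 6, 7675169 to 7693254, minus strand), which encodes asparagine synthetase, had 250 and 194 normalised CPM in SIS3 libraries, 61.8 and 64.1 in SB431542 columns, 30.2 and 33.9 in E13.5 DMSO columns and 53.9 and 51.5 in E12.5 DMSO columns. The log2 fold change of Asns was 2.07 (SE 0.34, adjusted p = 0.00404), with no overlap between SIS3 libraries and the other columns. Mthfd2, a mitochondrial folate enzyme gene, had 188 and 114 normalised CPM in SIS3 libraries, 42.6 and 48.4 in SB431542 columns, 46.7 and 43.8 in E13.5 DMSO columns and 46.8 and 43.8 in E12.5 DMSO columns. The rise of Mthfd2 was 1.73 (SE 0.38, adjusted p = 0.0267), and its 3 other groups lay close together.

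Gpt2, which encodes the mitochondrial alanine transaminase, had 149 and 142 normalised CPM in SIS3 libraries, 49.6 and 53.0 in SB431542 columns, 35.3 and 38.0 in E13.5 DMSO columns and 44.3 and 49.9 in E12.5 DMSO columns. Pck2, the mitochondrial phosphoenolpyruvate carboxykinase gene, had 151 and 124 normalised CPM in SIS3 libraries, 66.7 and 63.3 in SB431542 columns, 53.8 and 60.8 in E13.5 DMSO columns and 46.7 and 59.5 in E12.5 DMSO columns. Both rose, by 1.63 (Gpt2, SE 0.33, adjusted p = 0.0131) and 1.37 (Pck2, SE 0.33, adjusted p = 0.0335). The serine synthesis genes Phgdh, Psat1 and Psph, the serine to glycine enzyme gene Shmt2 and the proline synthesis gene Aldh18a1 were not called. Their log2 fold changes ran from -0.03 (Phgdh, adjusted p = 1) to 0.87 (Psat1, adjusted p = 0.162).

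Of the 14 genes called, Trib3, Slc7a3, Sesn2 and Chac1 kept the call in every alternative that gave a test, 4 in all. Their log2 fold changes over those alternatives were 4.01 to 4.81 for Trib3, 3.81 to 4.21 for Slc7a3, 2.82 to 3.26 for Sesn2 and 2.54 to 2.91 for Chac1. The genes lost when GC content and gene length trends were removed were Ddit3, Stc2, Ppp1r15a, Mthfd2, Pck2 and Slc7a5, at log2 fold changes of 1.60 (Pck2) to 3.20 (Stc2) and adjusted p of 0.0519 to 0.0834. With those trends removed, the fold of each of the 14 genes was at or above its value in the fit without the correction. Mthfd2, Pck2, Ppp1r15a and Slc7a5 were also lost when the SIS3 and E12.5 DMSO libraries were fitted alone. In the annotation the spans of Ddit3 (68 bases, Mars) and Ppp1r15a (717 bases, Tulp2) overlap a protein-coding gene on the opposite strand, as does the whole span of Slc7a5 (26545 bases, Gm20388), and no source used here states the strand setting of the counting.

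The endoplasmic reticulum genes included no call in SIS3 libraries. Hspa5 (ENSMUSG00000026864; chromosome 2, 34771970 to 34777547, plus strand), which encodes the chaperone BiP, had 629 and 477 normalised CPM in SIS3 libraries, 483 and 508 in SB431542 columns, 522 and 515 in E13.5 DMSO columns and 569 and 580 in E12.5 DMSO columns. Its SIS3 libraries lay on either side of the E12.5 DMSO columns, and the log2 fold change of -0.06 had a 95% confidence interval of -0.68 to 0.57 (adjusted p = 0.983). The upper end of that interval lies below the lower end for each of the 14 called genes, which runs from 0.67 (Pck2) to 3.38 (Trib3). Those genes were picked by passing the test in this comparison, so the gap is no separate support. The upper ends for Hsp90b1 (1.06), Dnajb9 (1.22) and Herpud1 (2.56) lie above 0.67, and those of the other endoplasmic reticulum genes lie below it.

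Hsp90b1, which encodes the chaperone GRP94, had 1020 and 551 normalised CPM in SIS3 libraries, 586 and 529 in SB431542 columns, 945 and 878 in E13.5 DMSO columns and 691 and 668 in E12.5 DMSO columns. Here too the SIS3 libraries lay on either side of the E12.5 DMSO columns, and the log2 fold change was 0.20 (95% confidence interval -0.65 to 1.06, adjusted p = 0.854). Xbp1, the target of IRE1, had 59.7 and 44.9 normalised CPM in SIS3 libraries, 48.4 and 46.1 in SB431542 columns, 71.6 and 67.0 in E13.5 DMSO columns and 59.6 and 57.6 in E12.5 DMSO columns. The counts do not separate spliced from unspliced Xbp1, and the log2 fold change was -0.17 (95% confidence interval -0.88 to 0.55, adjusted p = 0.87).

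Herpud1, which takes part in endoplasmic reticulum-associated degradation, was the one endoplasmic reticulum gene for which both SIS3 libraries lay above every SMARTer library. It had 119 and 59.8 normalised CPM in SIS3 libraries, 28.4 and 32.5 in SB431542 columns, 35.7 and 32.8 in E13.5 DMSO columns and 29.6 and 30.9 in E12.5 DMSO columns. The log2 fold change of 1.56 (SE 0.45, adjusted p = 0.102) was not called, although DESeq2 called it. Sdf2l1, which encodes a protein of chaperone complexes, was at low counts, with 2.14 and 2.85 normalised CPM in SIS3 libraries, 4.35 and 4.28 in SB431542 columns, 8.71 and 8.72 in E13.5 DMSO columns and 4.43 and 6.81 in E12.5 DMSO columns. Its SIS3 libraries lay below every other column, by -1.16 on the log2 scale against E12.5 DMSO (SE 0.67, adjusted p = 0.42). Such separation was common: both SIS3 libraries lay above every SMARTer library for 19.5% of all genes tested and below every one for 24.0%.

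Dnajb9, a co-chaperone gene of BiP, had 26.4 and 32.8 normalised CPM in SIS3 libraries, 28.4 and 26.7 in SB431542 columns, 13.49 and 14.45 in E13.5 DMSO columns and 23.8 and 22.7 in E12.5 DMSO columns. Pdia4, a disulfide isomerase gene, had 226 and 166 normalised CPM in SIS3 libraries, 192 and 190 in SB431542 columns, 235 and 234 in E13.5 DMSO columns and 256 and 245 in E12.5 DMSO columns. Both SIS3 libraries were above the E12.5 DMSO columns for Dnajb9 and below them for Pdia4, with log2 fold changes of 0.35 (adjusted p = 0.737) and -0.35 (adjusted p = 0.621).

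Creld2, a stress-induced gene of the endoplasmic reticulum, had 26.2 and 20.0 normalised CPM in SIS3 libraries, 24.0 and 23.0 in SB431542 columns, 34.9 and 32.8 in E13.5 DMSO columns and 29.7 and 28.6 in E12.5 DMSO columns. Hyou1, which encodes a large chaperone that exchanges the nucleotide of BiP, had 141 and 165 normalised CPM in SIS3 libraries, 127 and 124 in SB431542 columns, 128 and 130 in E13.5 DMSO columns and 162 and 160 in E12.5 DMSO columns. Creld2 was lower in both SIS3 libraries than in either E12.5 DMSO column, and the Hyou1 values overlapped. Their log2 fold changes were -0.34 (adjusted p = 0.736) and -0.07 (adjusted p = 0.965).

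The contrast between the arms was present in each SIS3 library taken alone. The median of the amino acid response genes minus the median of the endoplasmic reticulum genes, on the log2 ratio to E12.5 DMSO with 0.5 normalised CPM added to both sides, was 1.59 in SIS3 library 1 and 1.79 in SIS3 library 2. In the SB431542 library it was 0.43 and in the E13.5 DMSO library -0.34, and all these ratios share the E12.5 DMSO library. In the fit the difference was 1.64 for SIS3. Both SIS3 libraries lay above all 3 SMARTer libraries for 22 of the 26 amino acid response genes (84.6%) and 1 of the 9 endoplasmic reticulum genes (11.1%), against 19.5% of all genes tested. The exceptions among the amino acid response genes were Cebpb, Nupr1, Phgdh and Psph. Both SIS3 libraries lay below all SMARTer libraries for 0 of the 26 amino acid response genes and 1 of the 9 endoplasmic reticulum genes (11.1%), against 24.0% of all genes tested.

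**Figure D3:**
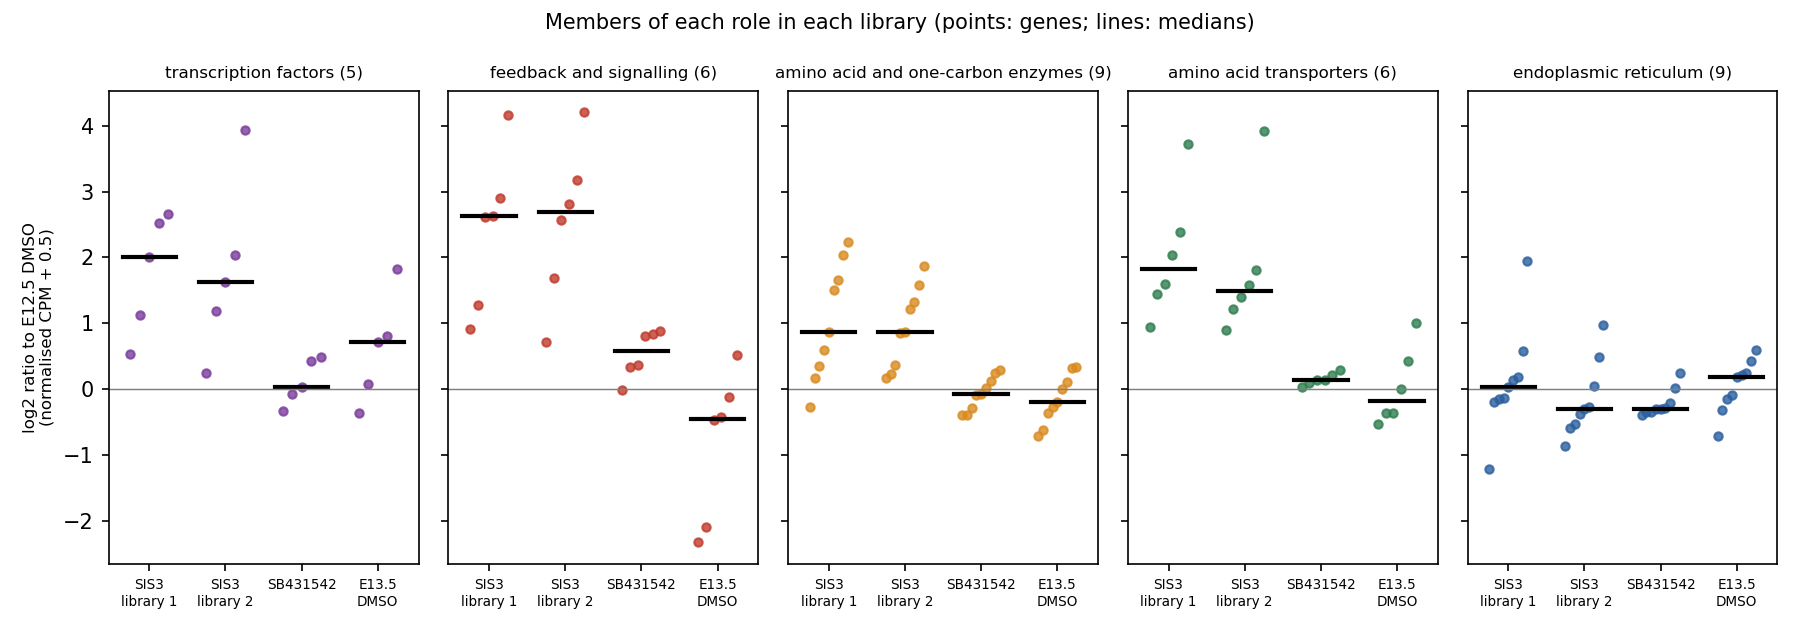
Log2 ratio of each gene to E12.5 DMSO (0.5 normalised CPM added to both sides) in each library, in a panel for each role; points are genes and black lines are medians. The feedback and signalling medians were 2.62 and 2.69 in the SIS3 libraries, 0.58 in SB431542 and -0.45 in E13.5 DMSO, while the endoplasmic reticulum medians were 0.03, -0.30, -0.31 and 0.18.

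The SIS3 libraries were also compared gene by gene. For the 14 genes called, the log2 ratio to E12.5 DMSO ran from 1.28 to 4.17 in library 1 and from 1.22 to 4.21 in library 2, and library 2 minus library 1 ran from -0.72 to 0.55. Over the 12 amino acid response genes not called, that difference ran from -0.37 to 1.41, with Atf5 at the upper end. Among the endoplasmic reticulum genes Herpud1 was at 1.95 and 0.97 and Hsp90b1 at 0.58 and -0.30 in libraries 1 and 2.

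**Figure D4:**
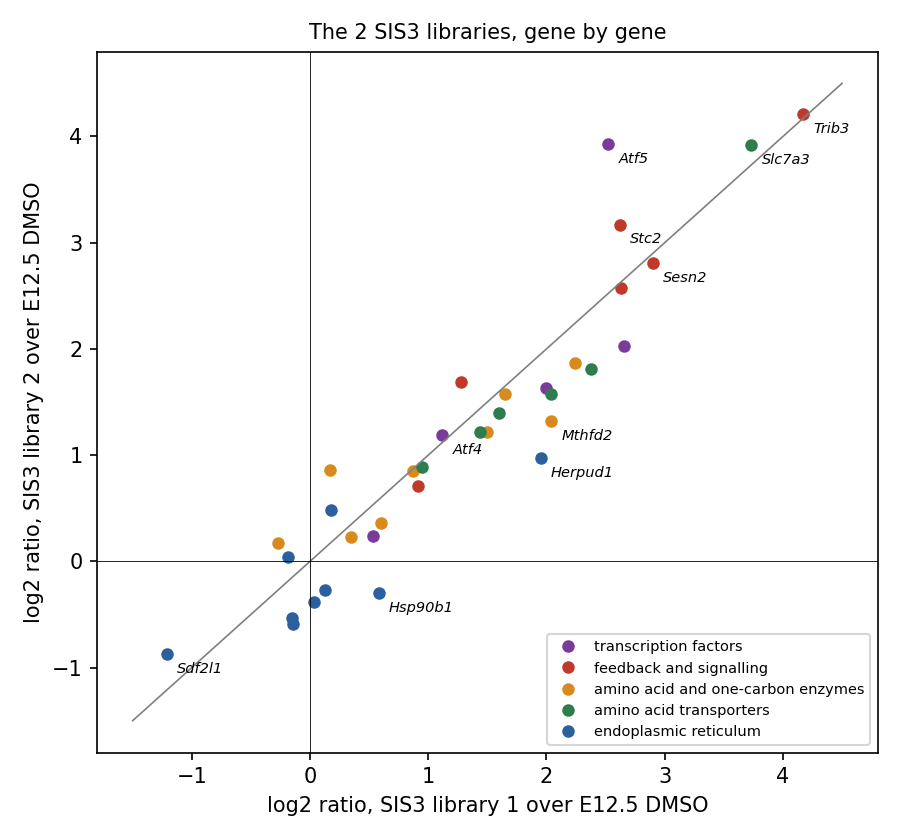
Log2 ratio to E12.5 DMSO in SIS3 library 2 (vertical axis) against SIS3 library 1 (horizontal axis) for the 35 genes, coloured by role, with the line of equality in grey. Trib3 (4.17 and 4.21 in libraries 1 and 2) and Slc7a3 (3.73 and 3.92) lie at the upper right near the line, Atf5 (2.52 and 3.93) lies above it, and Herpud1 (1.95 and 0.97) lies apart from the other endoplasmic reticulum genes.

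Promoter sequence was examined because the genes of each arm are known to share control elements, and some windows that hold them are printed below. RefSeq promoters of GRCm38.p6, from 250 bases before to 50 bases after each start, were found for 31 of the 35 genes, without Eif4ebp1, Slc7a3, Slc7a5 and Hyou1. The core of the amino acid response element, bound by ATF4 with CEBP partners, was searched as TGATGNAA on both strands. The endoplasmic reticulum stress element was searched as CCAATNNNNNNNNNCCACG on both strands. In the windows printed here capitals mark the core in Chac1, Asns and Pck2, in either orientation, and both ends of the stress element in Creld2 and Hsp90b1. By choice the core is shown only in called genes and the stress element only in endoplasmic reticulum genes, which were not called. The printed windows therefore cannot relate an element to a call. Trib3, whose core match lies after the start, and the uncalled genes with the core are not printed. The Asns window lies within the GENCODE span of the gene, and the other windows lie upstream of theirs.
Chac1 (chr2:119350992-119351228, plus strand): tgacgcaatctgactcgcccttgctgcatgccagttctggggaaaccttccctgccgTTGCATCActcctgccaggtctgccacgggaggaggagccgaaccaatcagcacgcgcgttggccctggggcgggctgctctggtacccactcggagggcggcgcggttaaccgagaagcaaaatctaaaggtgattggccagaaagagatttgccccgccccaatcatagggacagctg
Asns (chr6:7693214-7693243, minus strand): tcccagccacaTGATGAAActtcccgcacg
Pck2 (chr14:55540116-55540265, plus strand): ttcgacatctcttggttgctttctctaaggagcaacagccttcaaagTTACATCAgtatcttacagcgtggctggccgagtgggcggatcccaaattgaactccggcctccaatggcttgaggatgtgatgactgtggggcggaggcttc
Creld2 (chr15:88819496-88819645, plus strand): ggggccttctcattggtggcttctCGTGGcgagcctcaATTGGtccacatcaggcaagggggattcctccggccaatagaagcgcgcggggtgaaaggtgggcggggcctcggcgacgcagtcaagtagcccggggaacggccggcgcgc
Hsp90b1 (chr10:86705510-86705659, minus strand): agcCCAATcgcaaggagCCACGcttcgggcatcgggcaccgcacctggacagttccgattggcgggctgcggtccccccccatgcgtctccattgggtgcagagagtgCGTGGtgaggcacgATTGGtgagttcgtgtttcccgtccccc

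The amino acid response core was found in 6 of 28 promoters of the amino acid response genes (21.4%; Asns, Chac1, Nupr1, Pck2, Slc7a11 and Trib3) and in 1 of 8 promoters of the endoplasmic reticulum genes (Herpud1), against 3.97% of the 32851 promoters of all genes. Of the genes with it, Asns, Chac1, Pck2 and Trib3 were called in SIS3 libraries, and Nupr1, Slc7a11 and Herpud1 were not. The endoplasmic reticulum stress element was found in 3 of 8 promoters of the endoplasmic reticulum genes (37.5%; Creld2, Hsp90b1 and Hspa5) and in 0 of 28 of the amino acid response genes, against 0.119% of all promoters. The XBP1 element TGACGTGG, found in 0.676% of all promoters, was in 0 promoters of either arm. A match describes letters in the window and does not show binding, and a gene without a match may hold an element elsewhere.

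**Figure D5:**
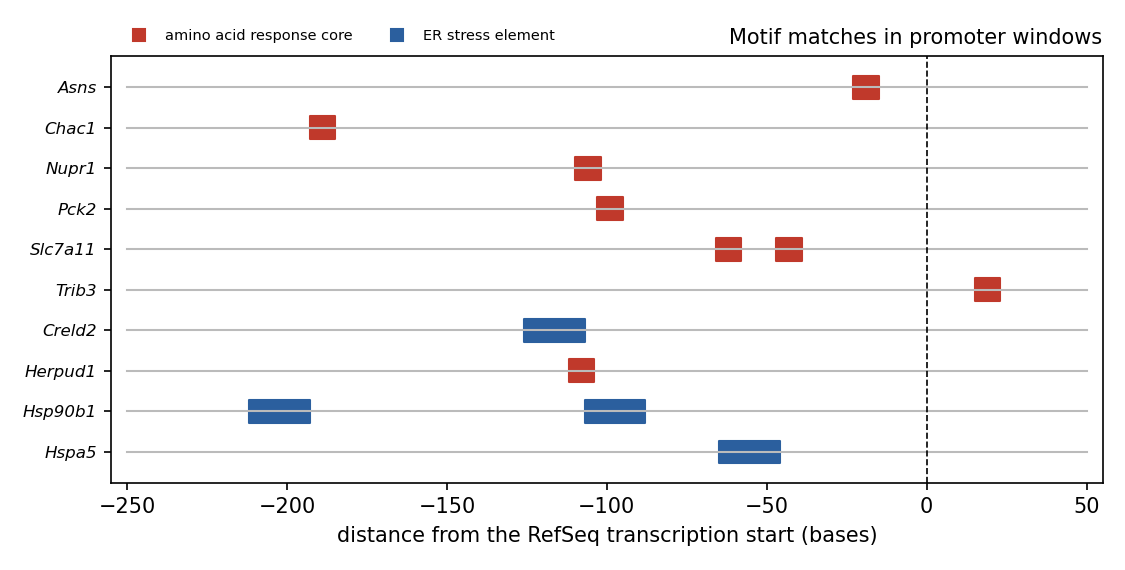
Position of each match in the promoter windows of the 10 genes that hold one, in bases from the RefSeq transcription start (dashed line); red marks the amino acid response core and blue the endoplasmic reticulum stress element. Matches lie between -212 in Hsp90b1 and 15 in Trib3, and Hsp90b1 and Slc7a11 hold more than 1 match each.

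Related genes outside the 35 were counted in SIS3 libraries in the same way. Of 27 other known ATF4 targets 5 were called higher and 0 lower (median log2 fold change 0.89, against 0 over all genes). Of all genes tested, 0.794% were called higher and 3.03% lower. Atf3, a stress-induced repressor, rose by 2.33 (SE 0.52, adjusted p = 0.0303), Aldh1l2, a mitochondrial folate enzyme gene, by 2.21 (SE 0.34, adjusted p = 0.00311) and Slc1a4, a neutral amino acid transporter gene, by 2.02 (SE 0.35, adjusted p = 0.00516). Of 18 aminoacyl-tRNA synthetases, which charge tRNAs with amino acids, 3 were called higher and 0 lower (median 0.63). These were Aars (1.53, SE 0.31, adjusted p = 0.0153), Lars (1.51, SE 0.33, adjusted p = 0.0232) and Eprs (1.14, SE 0.29, adjusted p = 0.0465).

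Of 34 further folding and degradation genes of the endoplasmic reticulum 0 were called higher and 2 lower (median -0.14), which can be read against 0.794% higher and 3.03% lower of all genes: Selenok (-1.34, SE 0.30, adjusted p = 0.0262), a selenoprotein of the degradation machinery, and Sec61b (-1.33, SE 0.34, adjusted p = 0.0489), a subunit of the translocon. Of 24 sensors and regulators of the response, among them the eIF2 kinases, 0 were called by edgeR (median 0.04), with 3 higher and 3 lower at an unadjusted p under 0.05 and 1 called higher by DESeq2. Of 16 cytosolic heat-shock chaperones 0 were called by edgeR (median -0.08), with 0 higher and 2 lower at an unadjusted p under 0.05 and 2 called higher by DESeq2. The log2 fold change of the PERK gene Eif2ak3 was -0.14 (adjusted p = 0.911) and that of the GCN2 gene Eif2ak4 was 0.01 (adjusted p = 1), genes picked for their role after the values were seen.

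Markers of other cell types also differed in the SIS3 libraries. All 10 endothelial markers were called lower, with summed levels of 49.3 and 40.8 normalised CPM in SIS3 libraries against 445 in E12.5 DMSO. Of 10 macrophage markers 5 were called lower (8.08 and 4.98 against 70.0; C1qa was at 0 in library 1 and C1qb, C1qc and Cx3cr1 in library 2), and of 8 skeletal muscle markers 3 (268 and 217 against 789). Of 10 dental mesenchyme markers 1, Dlx2, was called lower and none was at 0, and of 8 erythroid markers 1 was called lower (1300 and 580 against 1030). No epithelial marker was called of 9 tested (72.9 and 273 against 161; Shh was at 0 in library 1) and no neural marker of 8 (47.0 and 50.5 against 53.6; Sox10 was at 0 in library 1 and Foxd3 in library 2), with 0 and 1 lower at an unadjusted p under 0.05 and 0 by DESeq2. The part of these markers in the stress gene values was not tested.

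SIS3 was also set against SB431542, the other inhibitor at the same stage, with the kits differing as before. Here 12 of the 26 amino acid response genes were called higher and 0 lower, and 0 of the 9 endoplasmic reticulum genes, against 0.499% higher and 1.95% lower of all genes tested. The 12 are the 14 called against E12.5 DMSO without Ppp1r15a and Pck2. Trib3 was higher in SIS3 libraries by 3.39 (SE 0.43, adjusted p = 0.000662), Slc7a3 by 3.96, Sesn2 by 2.04 (SE 0.35, adjusted p = 0.00648) and Asns by 1.82 (SE 0.33, adjusted p = 0.0105), and Hspa5 differed by 0.16 (95% confidence interval -0.47 to 0.78). The median was 1.46 over the amino acid response genes and 0.14 over the endoplasmic reticulum genes, against -0.03 over all genes. The count of 12 fell to 3 when GC content and gene length trends were removed and to 2 when genes averaging under 5 CPM were left out. The median log2 fold change of the 12 genes was 1.90, 2.10 with the trends removed and 1.90 with the filter. All 12 passed that filter, which hardly alters a fold. At an unadjusted p under 0.05, 20 amino acid response genes and 1 endoplasmic reticulum gene were higher and 0 were lower. Over all genes tested, 4.71% were higher and 9.63% lower at that p. DESeq2 called 15 amino acid response genes higher and 0 endoplasmic reticulum genes, against 155 higher and 319 lower among all genes. Epithelial markers had a median log2 fold change of 1.43 with 9 of 9 above 0, 0 called by edgeR, 2 higher at an unadjusted p under 0.05 and 2 called higher by DESeq2 (summed level 72.9 and 273 normalised CPM in SIS3 libraries against 57.5 in SB431542). Called lower were 10 of 10 endothelial (49.3 and 40.8 against 504), 5 of 10 macrophage (8.08 and 4.98 against 61.2), 3 of 8 skeletal muscle and 1 of 8 erythroid markers, and the part of these markers in the stress gene values was not tested.

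SB431542 against E12.5 DMSO gave no call among the 35 genes in either direction, nor among the 19022 genes tested (0% higher and 0% lower, by edgeR; DESeq2 called 7 genes lower, none of the 35). At an unadjusted p under 0.05, 2 amino acid response genes were higher, 0 were lower, and 0 endoplasmic reticulum genes passed; over all genes 108 were higher and 127 lower. The 2 were Trib3, with a log2 fold change of 0.96 (95% confidence interval 0.04 to 1.88), and Sesn2, with 0.84 (0.06 to 1.63). For Chac1 the value was 0.83 (-0.11 to 1.76). The median was 0.13 over the amino acid response genes, 0.60 over the feedback and signalling group and -0.31 over the endoplasmic reticulum genes. Hspa5 had a log2 fold change of -0.21 (95% confidence interval -0.93 to 0.50) and Atf4 of 0.03 (-0.68 to 0.74). Epithelial markers summed to 57.5 normalised CPM in SB431542 against 161 in E12.5 DMSO, with 0 of 9 called and 1 lower at an unadjusted p under 0.05, and their part in these values was not tested. Both groups are 1 library each, so this comparison has no replicate check of its own, and the interval around a log2 fold change was 1.22 to either side at the median gene.

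Stage was compared in the DMSO groups, E13.5 against E12.5, again with 1 library each. Here 4.06% of the genes tested were called higher and 1.17% lower. At an unadjusted p under 0.05 these shares were 15.4% and 8.88%. None of the 26 amino acid response genes was called higher and 2, Chac1 and Stc2, were called lower, while 0 of the 9 endoplasmic reticulum genes were called (0 at an unadjusted p under 0.05, 0 by DESeq2). Chac1 had 1.31 and 2.39 normalised CPM in E13.5 DMSO columns against 8.66 and 10.4 in E12.5 DMSO columns, or -2.36 on the log2 scale (SE 0.48, adjusted p = 0.0152). Stc2 had 0 counts in the E13.5 DMSO library against 61 in the E12.5 DMSO library, so it was at least 11.3-fold lower at E13.5, taking 3 counts per library as the floor (adjusted p = 0.0109). Neither call held when GC content and gene length trends were removed or genes averaging under 5 CPM were left out, although the log2 fold change of Chac1 ran from -2.85 to -1.99 over the alternatives. Chac1 was not called without column 1 of the E13.5 DMSO pair, and Stc2 was not called without column 2.

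The remaining values of the stage comparison lay closer to 0. The median log2 fold change was -0.16 over the amino acid response genes and 0.18 over the endoplasmic reticulum genes. Nupr1 had a log2 fold change of 2.01 (95% confidence interval 0.45 to 3.56, adjusted p = 0.117) and Slc3a2 of 1.01 (0.21 to 1.82, adjusted p = 0.125), and neither was called. Outside the 35 genes 0 were called higher in the related lists. Called lower were 1 of 18 synthetases (Wars), 1 of 24 sensors and regulators (Eif2s3x), 2 of 16 cytosolic heat-shock chaperones (Hspb1 and Hspe1), 0 of 27 other ATF4 targets and 0 of 34 folding and degradation genes. Of 8 skeletal muscle markers 3 were called lower at E13.5 (summed level 807 against 789 normalised CPM, with Myod1, Pax7 and Tnnc2 at 0 at E13.5), and 1 of 8 erythroid markers. No endothelial, macrophage, epithelial, neural or mesenchymal marker was called in the stage comparison, with 1 endothelial marker higher and 1 mesenchymal marker lower at an unadjusted p under 0.05 and 0 by DESeq2, and the part of any marker in these values was not tested.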

How the data were processed

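RNA-seq values were deposited by the authors as estimated counts per gene in whole numbers, not scaled between libraries. Per the submitters' processing notes, Salmon, HISAT2, SAMtools, deepTools and DESeq2 were used, without stated roles, with the build mm10; no source used here states the annotation or the options of the counting. Salmon divides reads shared between similar transcripts by estimation. The 5 libraries were fitted together with edgeR 4.0.16 (R 4.3.3): TMM scaling, filterByExpr, robust quasi-likelihood, group as the only factor, Benjamini-Hochberg adjustment at 0.05 over 19022 genes. Standard errors and 95% confidence intervals were derived from the F statistic. Residual degrees of freedom number 1, from the SIS3 pair, and the 3 lone libraries are assumed to vary like it. The common biological coefficient of variation was 29.3%.

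Columns of a pair were summed where totals differed by under 1% and the median-based variance over the binomial, for genes with 1 transcript, was under 2 (1.21 for SB431542, 1.19 for E13.5 DMSO and 1.26 for E12.5 DMSO, against 11.1 for SIS3). For genes with 7 or more transcripts it reached 3.19, 2.44 and 3.14, against 17.6. The scripts were tested on simulated counts. Coordinates of genes are from GENCODE M21 (GRCm38). The members and lists were chosen with earlier results of these data known, so no test was made over a list. Values in every column are given for members called in any comparison, for Atf4, Ddit3 and Xbp1 and for the endoplasmic reticulum genes; from other lists, up to 3 called genes with the largest change. The comparison of SIS3 with SB431542 was added after the data were seen. Alternatives were DESeq2 1.42.0, other filters, all 8 columns, a replicate block, 2 groups alone, GC and length trends, and leaving out columns. The floor of 3 counts covers counting error only; the confidence intervals are those of the fit.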

Additional observations from a re-analysis of the deposited data

How the results depend on the processing

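Limits come first from the number of libraries: every spread rests on the SIS3 pair, and leaving out either SIS3 library leaves no test, only folds. Called amino acid response, endoplasmic reticulum and all genes are given in that order, higher and lower calls together, against 14, 0 and 727 for SIS3 over E12.5 DMSO, 0, 0 and 0 for SB431542 over E12.5 DMSO, 2, 0 and 995 for E13.5 over E12.5 DMSO and 12, 0 and 465 for SIS3 over SB431542. The cause of the changes below was not tested.

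With all 8 columns as replicates, which treats columns of 1 library as separate samples, the counts were 23, 2 and 6764 for SIS3, 1, 0 and 259 for SB431542, 14, 2 and 9742 for stage and 23, 2 and 5805 for SIS3 over SB431542. With the replicate block on those columns they were 23, 2 and 6194, then 1, 0 and 83, then 12, 2 and 9260, then 23, 1 and 5191. Deviations of same-numbered columns correlated at -0.023 to 0.001. The paired columns of SB431542, E13.5 DMSO and E12.5 DMSO were counted as 1 library each, so their deviations are mostly sampling noise. This check therefore cannot decide whether the replicate numbers pair the samples.

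With no filter on low counts, all genes called were 1414 for SIS3, 27 for SB431542, 2062 for stage and 1027 for SIS3 over SB431542, and 1 endoplasmic reticulum gene, Herpud1, was called in each SIS3 comparison. With genes averaging 5 CPM or more, SIS3 gave 4 amino acid response genes and 130 genes, stage 0 and 192, and SIS3 over SB431542 2 and 85. With GC content and gene length trends removed, SIS3 gave 8 and 161, stage 0 and 89, SIS3 over SB431542 3 and 89, and the SIS3 difference between arm medians was 1.84, against 1.64 in the reported fit and 1.63 with genes averaging 5 CPM or more. DESeq2 called 1 endoplasmic reticulum gene and 678 genes in all for SIS3. It called 7 genes for SB431542, 603 for stage and 474 for SIS3 over SB431542. The SIS3 and E12.5 DMSO libraries alone gave 232 genes.

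Leaving out 1 column of the other groups at a time gave 12 to 14 amino acid response genes for SIS3, 1 to 2 for stage and 8 to 12 for SIS3 over SB431542. The lowest for SIS3 over SB431542 came without replicate 2 of E13.5 DMSO. All genes called ran from 488 to 708 for SIS3, 0 to 1 for SB431542, 399 to 903 for stage and 314 to 477 for SIS3 over SB431542. The difference between arm medians, with each SIS3 library left out as well, ran from 1.61 to 1.80. Over single members in the 4 comparisons, 1968 values kept their call or, without a call or a test, changed by under 1 SE. A call was lost in 56 and gained in 94, and 13 without a call or a test changed by more. With a call in either fit, 0 values changed sign, and sign changes of uncalled values were not counted.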
